A study of Mus musculus with 25 samples.

Results

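RasHIGH cells, which carry a high level of the oncogene H-Ras G12V, were compared with control cells of the same line by RNA sequencing of 3 cultures of each, which makes up 6 of the 25 libraries of the series. The libraries were chosen by the column names of the count table alone, and all 24984 genes of the table entered. The gene lists below and their members were chosen with earlier results of these data known. Their shares of calls therefore describe the lists and do not test them. BMEL cells (bipotential mouse embryonic liver) are progenitors of hepatocytes and bile duct cells, grown from the liver of a female mouse embryo of a C57BL/6 by C3H cross, and are not transformed. The study asked what different doses of oncogenic Ras do to such progenitors, in culture and after grafting, and its other libraries come from RasLOW cells and from sorted tumour and stromal cells of grafted mice.

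The control cultures are labelled as carrying an empty vector, while the study's text calls them wild type or parental BMEL cells. RasHIGH cells were transduced with a human H-Ras G12V cDNA in a bicistronic lentiviral vector that also encodes Venus or mCherry, and were sorted as a population by the brightness of that reporter, so they are a mixture of integrations and not 1 clone. The labels do not say which reporter the sequenced RasHIGH cells carried, and the RasHIGH and RasLOW populations overlap in their Ras level. The labels give both groups as in exponential growth, on plates coated with collagen, in RPMI medium with serum, insulin, Igf2 and Egf, so the control cells too received growth factors that act through Ras. The methods describe the cultures as independent biological samples. Mouse Hras itself read 90.3, 93.6 and 77.5 CPM in the control and 52.3, 85.2 and 76.3 CPM in the RasHIGH cultures (log2 fold change -0.29 ± 0.20, adjusted p = 0.34), where CPM is the count per 1000000 after normalization of library sizes and ± marks the standard error of the log2 fold change, RasHIGH minus control. These values overlapped. The transgene is a human sequence in reads aligned to the mouse genome, so mouse Hras neither checks nor contradicts the labels.

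Ras proteins are switches that are active while bound to GTP, and the G12V change keeps them in that state. Active Ras recruits Raf kinases, which pass the signal through Mek to Erk, and Erk phosphorylates further kinases and transcription factors of the Ets and AP-1 families. Cells answer with feedback inhibitors of the same route, among them the Dusp phosphatases and the Sprouty proteins. In liver progenitors the route stands beside signals from Egf, hepatocyte growth factor, Notch, Wnt and Yap, which set growth and the choice between hepatocyte and bile duct fates.

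Library totals ran from 20818989 to 26984265 counts, and 3 counts, the least taken as detected, correspond to 0.111 to 0.144 CPM, which covers counting error only. Of 12331 genes with enough counts to be tested, 2789 (22.6%) passed an adjusted p of 0.05, 1341 (10.9%) of them higher and 1448 (11.7%) lower in RasHIGH cells. A member of a gene list is said to have risen or fallen when it passed this test, and a value with ± is a log2 fold change and its standard error. This standard error was derived from the F statistic of the test. With few or no counts in 1 group the size of the fold change is poorly determined, whatever its ±. Among these genes the falls were the steeper, with a log2 fold change beyond 3 for 373 of the lowered and 153 of the raised genes. The study's thresholds were a log2 fold change beyond 1.5 and a p under 0.01. With that p taken here as unadjusted, 1190 genes passed (9.65%), 446 higher (3.62%) and 744 lower (6.03%). The paper does not say whether its p was adjusted, and a supplementary list of it gives adjusted values. It also removed genes of low expression by RPKM, which was not done here, so the counts are not like for like. The cultures of the groups did not overlap in 43.3% of the tested genes. In 56 of the lowered genes no RasHIGH library held a count, and in 5 of the raised genes no control library did. For such genes a fold given as "at least" is the mean CPM of the group with counts over the highest 3-count floor of the other. It is not a bound for each single culture.

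RasHIGH culture 1 stood apart from the other 5. It had the lowest level of the 6 libraries in 40 of 40 genes of DNA replication and mitosis, and their median was 0.178 of the control mean, against 1.04 and 1.01 in RasHIGH cultures 2 and 3. Mki67, a marker of cycling cells, measured 374, 398 and 445 CPM in the control and 47.7, 289.5 and 364 CPM in the RasHIGH cultures. Cdk1, the kinase that drives mitosis, measured 173, 161 and 157 CPM in the control and 24.7, 142 and 137 CPM in the RasHIGH cultures. Of the 40 genes, 0 rose or fell over the 6 libraries, and 3 rose and 2 fell without RasHIGH culture 1. Without this culture 1857 genes were higher and 2039 lower in all. A further feature of the libraries is the sequencing lane: controls 1 and 2 were run in lane 3, and control 3 and the 3 RasHIGH cultures in lane 4. With the lane as a term, 145 genes were higher and 400 lower, and that fit rests on control 3 alone for the comparison within a lane. Each list below is therefore given with its counts when control 1, 2 and 3 and RasHIGH 1, 2 and 3 were left out in turn, always in this order, and with its counts in the fit with a lane term.

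**Figure D1:**
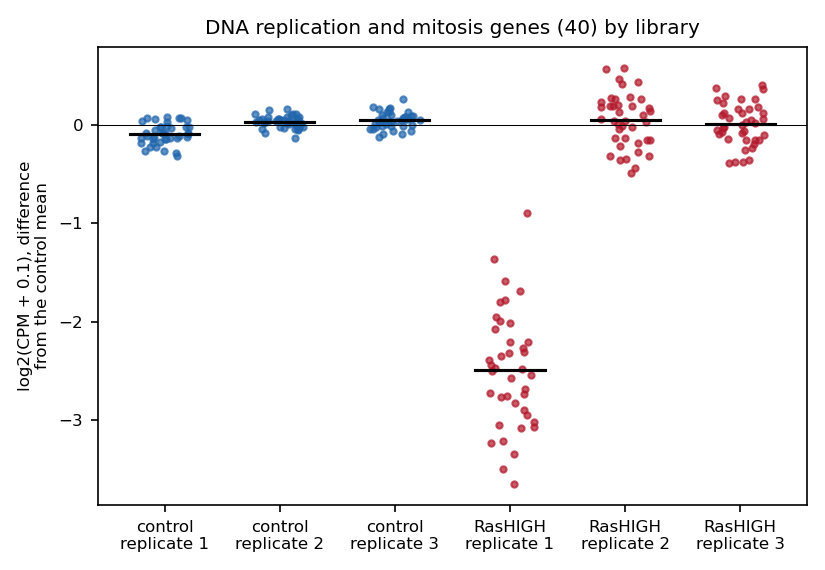
Levels of the 40 DNA replication and mitosis genes in each of the 6 libraries, as log2(CPM + 0.1) minus the mean of the controls. Each point is 1 gene, control libraries in blue and RasHIGH libraries in red, and black bars are medians over the genes. The genes of RasHIGH replicate 1 lie lower than those of the other 5 libraries, with a median of -2.49.

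**Figure D2:**
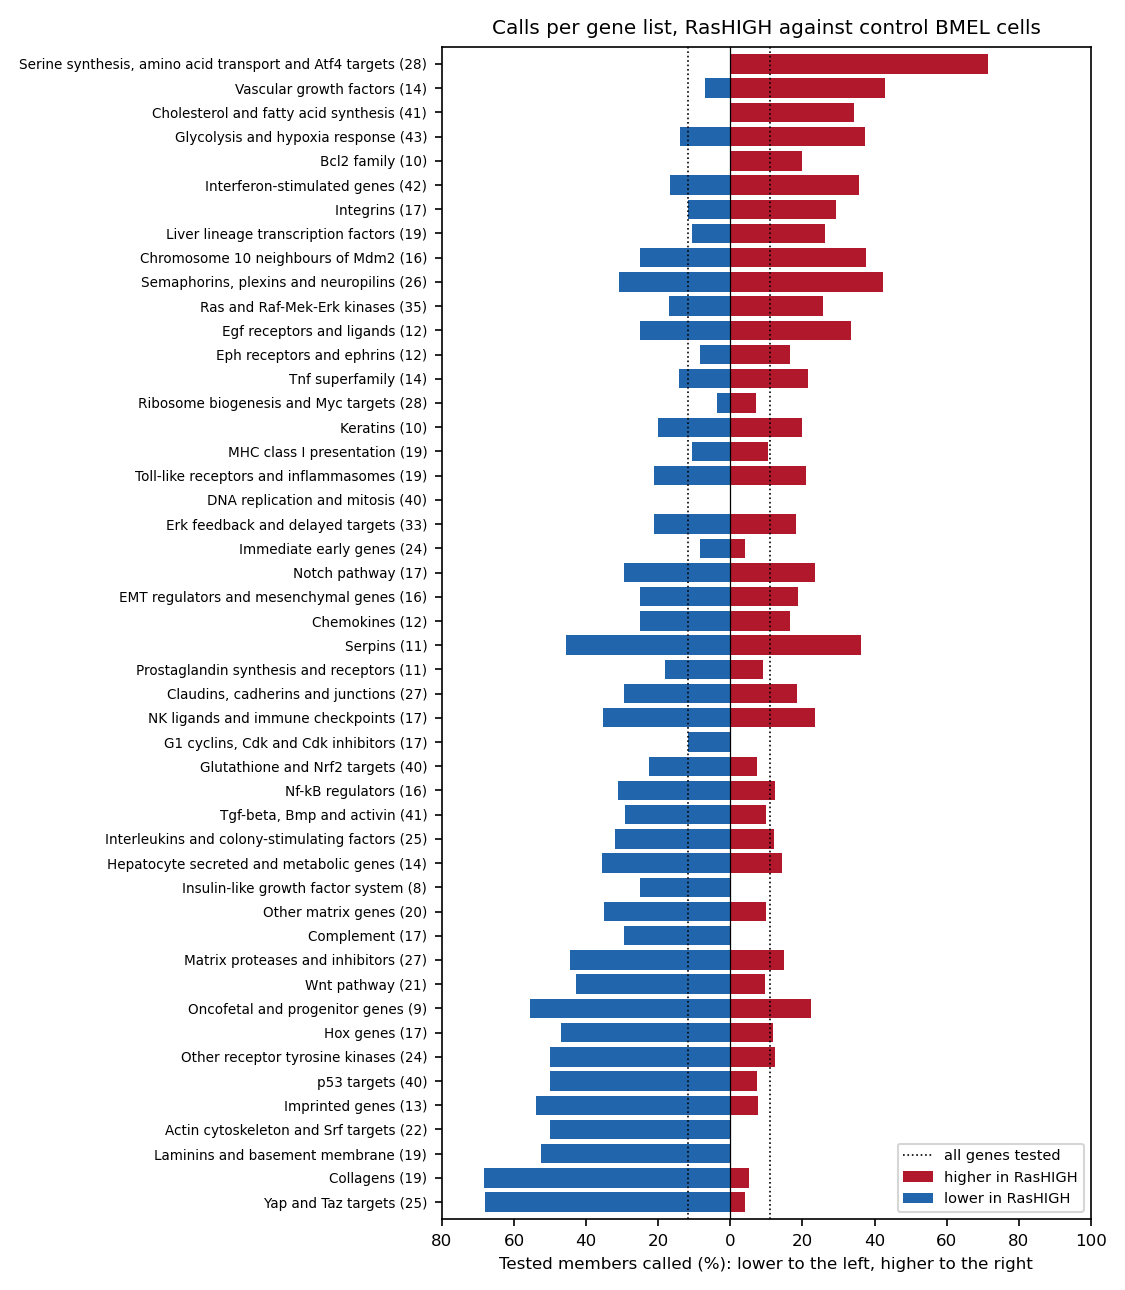
Share of the tested members of each gene list that were higher (to the right, red) or lower (to the left, blue) in RasHIGH than in control cells at an adjusted p under 0.05, in percent, with the number of tested members in brackets. Dotted lines mark all genes tested, 10.9% higher and 11.7% lower, and the Atf4 and amino acid list lies at the top with 71.4% higher.

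The 10 markers of liver progenitors, with Krt8, Krt18 and Krt19 making up most of the sum, summed to 8915 to 10832 CPM in the control and 9077 to 9356 CPM in the RasHIGH cultures, and 9 of them reached 1 CPM in some library, while Epcam stayed under 1 CPM in each of the 6. Of the 9 tested, Krt19 and Sox9 rose, Krt18 fell and 6 were not called. Leukocyte markers, nearly all of it Cd68 and Csf1r, summed to 8.06 to 11.1 CPM in the control and 4.59 to 8.43 CPM in the RasHIGH cultures. Csf1r fell from 3.58, 3.14 and 3.86 to 0.314, 1.10 and 0.625 CPM (log2 fold change -2.38, adjusted p = 0.011), and Cd68 was not called. Fibroblast markers, nearly all of it Col1a1, summed to 8.39 to 10.9 CPM in the control and 1.10 to 1.45 CPM in the RasHIGH cultures. Of the 4 mesothelial markers Msln, Upk3b and Wt1 fell, and Lrrn4 was too low to test. Their sum, nearly all of it Msln, was 1277 to 1449 CPM in the control and 592 to 825 CPM in the RasHIGH cultures. The falls differed in size, with log2 fold changes of -0.90 for Msln, -5.69 for Upk3b and -6.25 for Wt1. Wt1, the transcription factor, measured 15.2, 12.8 and 13.4 CPM in the control and 0.196, 0.0459 and 0.289 CPM in the RasHIGH cultures. Of the 5 endothelial markers Cdh5 alone reached 1 CPM, at 0, 0.0739 and 0.161 CPM in the control and 11.1, 9.72 and 6.25 CPM in the RasHIGH cultures (log2 fold change 6.78 ± 0.64, adjusted p = 0.00086). The paper describes the parental BMEL cells as clonally derived, and whether cells of other types were present was not tested. In bulk RNA, fewer cells of a type cannot be told apart from less RNA per cell.

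The Ras and Erk route changed in parts. Of 43 listed genes of the route 35 were tested, and 9 rose (25.7%) and 6 fell (17.1%), with a median log2 fold change of 0.12 beside -0.02 for all genes tested. The Rsk kinases, which Erk activates directly, rose, and they phosphorylate ribosomal protein S6 and transcription factors. Rps6ka2 (Rsk3) measured 34.0, 37.5 and 31.5 CPM in the control and 478, 297 and 238 CPM in the RasHIGH cultures (log2 fold change 3.30 ± 0.28, adjusted p = 0.00057). Rps6ka3 (Rsk2) measured 70.9, 60.3 and 70.6 CPM in the control and 238, 158 and 129 CPM in the RasHIGH cultures (log2 fold change 1.38 ± 0.23, adjusted p = 0.0069). Rps6ka1 (Rsk1) rose with a log2 fold change of 0.93 ± 0.16. In each of the 3 genes the RasHIGH cultures lay above the control cultures.

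Other steps of the route moved the other way or little. Ksr1, the scaffold that holds Raf, Mek and Erk together, fell from 14.2, 17.6 and 17.9 CPM to 6.90, 4.63 and 5.82 CPM (log2 fold change -1.52 ± 0.21, adjusted p = 0.0036), and Rasgrp3, an exchange factor that loads Ras with GTP, fell by 3.76 on the log2 scale. The Ras relative Rras2 fell (-1.38 ± 0.26), while Rasa2, which helps Ras hydrolyse GTP, rose (0.81 ± 0.12). Map2k1 (Mek1) at 0.36 ± 0.14 and Mapk3 (Erk1) at 0.46 ± 0.17 did not pass the test. When each library was left out in turn the list gave 6, 4, 5, 9, 5 and 6 higher and 5, 4, 4, 7, 4 and 6 lower members, and 1 higher and 2 lower with the lane term.

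Feedback inhibitors of Erk and its Ets factors moved unevenly. Of 33 tested genes of this list 6 rose (18.2%) and 7 fell (21.2%). Etv4, an Ets factor induced by Fgf and Ras signals, measured 53.4, 37.6 and 48.6 CPM in the control and 138, 147 and 126 CPM in the RasHIGH cultures (log2 fold change 1.56 ± 0.16, adjusted p = 0.0012), and its cultures did not overlap. The related Etv5 rose by 1.10 ± 0.23 (log2) but was called in 5 of the 6 leave-one-out fits, highest adjusted p = 0.061. Dusp6, the phosphatase that inactivates Erk, stood at 619, 477 and 474 CPM in the control and 705, 506 and 495 CPM in the RasHIGH cultures (log2 fold change 0.12 ± 0.19, adjusted p = 0.70). These values overlapped, and without RasHIGH culture 1 the log2 fold change was -0.061. Dusp4 had values of 76.3, 91.5 and 86.6 CPM in the control and 226, 117 and 88.0 CPM in the RasHIGH cultures (adjusted p = 0.15), and Spry4 of 18.7, 12.6 and 19.7 and 66.1, 28.5 and 19.9 CPM (adjusted p = 0.10). In both genes RasHIGH culture 1 was the highest and RasHIGH culture 3 lay close to the controls. Dusp8, a phosphatase that acts on Jnk and p38, fell (-2.04 ± 0.38), as did Ets2 (-0.97 ± 0.14) and Ccnd1, the G1 cyclin (-0.62 ± 0.12). Counts with a library left out were 4, 2, 2, 7, 3 and 6 higher and 4, 4, 7, 12, 6 and 7 lower, and 1 and 1 with the lane term.

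Immediate early genes, which growth factors switch on within minutes, were called in smaller shares than all genes tested, of which 10.9% rose and 11.7% fell. Egr1, a gene of this list, spread widely between RasHIGH cultures. Egr1 read 169, 108 and 300.3 CPM in the control and 1174, 33.5 and 240.0 CPM in the RasHIGH cultures (adjusted p = 0.42), so RasHIGH culture 1 was the highest and RasHIGH culture 2 the lowest of the 6, and without RasHIGH culture 1 the log2 fold change turned to -0.49. Myc had a log2 fold change of 0.42 ± 0.22 (adjusted p = 0.23) with overlapping groups. Of 24 tested genes of the list, 1 rose (4.17%), Egr3 at 2.55 ± 0.64, and 2 fell (8.33%), among them Btg2 at -1.77 ± 0.41. Of these 3 calls 0 held in each of the 6 fits with a library left out. Egr3 was called in 4 of the 6 leave-one-out fits, highest adjusted p = 0.098, and Btg2 was called in 2 of the 6 leave-one-out fits, highest adjusted p = 0.070. The list gave 1, 0, 0, 1, 3 and 1 higher and 0, 1, 1, 5, 0 and 0 lower members with a library left out, and 0 with the lane term.

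Among Egf family genes, ligands changed in both directions and the receptor Egfr fell. Of 12 tested, 4 rose (33.3%) and 3 fell (25%), and these counts were the same without any 1 of the 6 libraries. With the lane term 3 were higher and 1 lower. Btc, betacellulin, measured 44.2, 26.8 and 30.8 CPM in the control and 211, 163 and 135 CPM in the RasHIGH cultures (log2 fold change 2.32 ± 0.25, adjusted p = 0.0013). Areg, amphiregulin, measured 157, 150.4 and 149 CPM in the control and 611, 382 and 462 CPM in the RasHIGH cultures (log2 fold change 1.67 ± 0.19, adjusted p = 0.0015). The ligands Nrg1 (-2.11 ± 0.38) and Hbegf (-1.09 ± 0.17) fell, and 3 of the 7 tested ligands were not called. Tgfa at 0.35 ± 0.14 did not pass. Egfr, the receptor of Btc and Areg, measured 324, 362 and 268 CPM in the control and 29.9, 30.1 and 70.4 CPM in the RasHIGH cultures (log2 fold change -2.87 ± 0.37, adjusted p = 0.0025), and its highest RasHIGH culture was below its lowest control. Erbb3, a receptor that signals in pairs with other Erbb proteins, rose from 8.79, 2.99 and 5.51 to 29.0, 28.1 and 25.4 CPM (log2 fold change 2.25 ± 0.37, adjusted p = 0.0061). Errfi1, an inhibitor that binds Egfr and is induced by the pathway, rose too (1.38 ± 0.16).

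Receptor tyrosine kinases outside the Egf family fell more often than they rose. Of 24 tested receptors and ligands, 3 rose (12.5%) and 12 fell (50%), with a median of -0.81. Fgfr2 measured 10.6, 5.06 and 8.61 CPM in the control and 0, 0.0459 and 0 CPM in the RasHIGH cultures (log2 fold change -8.68 ± 0.70, adjusted p = 0.00053), with 1 RasHIGH culture above 0. Fgfr3 fell from 15.7, 19.9 and 12.5 to 0.588, 1.28 and 1.35 CPM and its ligand Fgf18 from 15.4, 24.3 and 17.9 to 0.510, 1.10 and 2.31 CPM. Igf1r, the receptor through which insulin-like growth factors act, measured 315, 298 and 298 CPM in the control and 82.8, 107 and 132 CPM in the RasHIGH cultures (log2 fold change -1.5 ± 0.18, adjusted p = 0.0020). Those that rose were Mst1r (2.53 ± 0.30), the receptor of macrophage-stimulating protein, Mertk (2.34 ± 0.30), which recognises dying cells, and Kitl (1.33 ± 0.21), the ligand of Kit. Met, the hepatocyte growth factor receptor, fell by 0.60 ± 0.17 (log2) and was called in 2 of the 6 leave-one-out fits, highest adjusted p = 0.16. Library by library the list gave 3, 3, 3, 3, 3 and 3 higher and 8, 9, 9, 14, 7 and 12 lower, and 0 and 4 with the lane term.

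Of the Igf binding proteins, which hold Igf in the medium, Igfbp7 measured 192, 209.7 and 195 CPM in the control and 0.353, 0.688 and 1.11 CPM in the RasHIGH cultures (log2 fold change -8.14 ± 0.35, adjusted p = 6.4e-05), with a wide gap between the groups. Igfbp4 fell from 33.3, 64.5 and 85.3 to 1.72, 2.16 and 3.66 CPM (adjusted p = 0.00098). These 2 were the calls among 8 tested members, and both stood in each fit with a library left out and with the lane term.

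Semaphorins and plexins, guidance cues and their receptors, had calls in both directions, 11 of 26 higher (42.3%) and 8 lower (30.8%). The receptor Plxna4 measured 3.27, 2.07 and 1.01 CPM in the control and 53.8, 30.5 and 32.2 CPM in the RasHIGH cultures (log2 fold change 4.19 ± 0.46, adjusted p = 0.0014), and Plxnd1 measured 47.1, 38.1 and 61.2 CPM in the control and 419, 225 and 168 CPM in the RasHIGH cultures (log2 fold change 2.47 ± 0.36, adjusted p = 0.0042). Nrp1, a co-receptor of plexins that also binds Vegf, fell from 159.9, 189 and 170.1 to 12.5, 25.4 and 38.6 CPM (log2 fold change -2.76 ± 0.38, adjusted p = 0.0032). Among the ligands Sema6d (2.27 ± 0.32) and Sema6b (2.11 ± 0.30) rose, and Sema3f (-1.72 ± 0.26) and Sema4d (-1.63 ± 0.30) fell. The counts with a library left out were 7, 7, 7, 11, 10 and 9 higher and 7, 6, 7, 10, 6 and 7 lower, and 1 and 2 with the lane term.

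Genes of serine synthesis and amino acid transport and other targets of Atf4, the transcription factor of the response to amino acid shortage and unfolded proteins, were raised in most cases. Of 30 listed genes 28 were tested, 20 rose (71.4%) and 0 fell, and the median was 1.16. Atf4 with its partners of the C/EBP family binds a composite element, searched here as TGATGNAA on either strand. In 300-base windows around gene starts (RefSeq, GRCm38.p6), this element was found in 7 of the 17 risen members that have a window (41.2%), in 0 of 7 tested members that did not rise, in 2.67% of the 9833 tested genes and in 4.51% of all 27025 genes with a window. The members were listed as known targets of Atf4, so a share above that of all genes comes with the list and says nothing of the rise. The windows of 3 risen genes that hold it are shown, since these genes moved together, with the element in capitals. They lie at chr6:7693160-7693459 (minus strand) for Asns, chr7:126625421-126625720 (minus strand) for Nupr1 and chr3:50443564-50443863 (minus strand) for Slc7a11, and are written 5′ to 3′ along the gene.
Asns: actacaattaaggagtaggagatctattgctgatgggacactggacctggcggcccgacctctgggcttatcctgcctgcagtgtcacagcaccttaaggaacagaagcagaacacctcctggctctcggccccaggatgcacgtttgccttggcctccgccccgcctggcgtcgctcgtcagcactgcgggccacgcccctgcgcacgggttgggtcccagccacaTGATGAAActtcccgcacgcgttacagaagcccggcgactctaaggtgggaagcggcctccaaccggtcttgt
Nupr1: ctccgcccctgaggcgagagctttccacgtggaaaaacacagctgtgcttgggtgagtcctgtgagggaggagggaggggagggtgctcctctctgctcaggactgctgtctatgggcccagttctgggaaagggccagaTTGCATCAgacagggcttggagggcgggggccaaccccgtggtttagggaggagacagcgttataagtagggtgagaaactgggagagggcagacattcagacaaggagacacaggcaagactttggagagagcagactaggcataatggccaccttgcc
Slc7a11: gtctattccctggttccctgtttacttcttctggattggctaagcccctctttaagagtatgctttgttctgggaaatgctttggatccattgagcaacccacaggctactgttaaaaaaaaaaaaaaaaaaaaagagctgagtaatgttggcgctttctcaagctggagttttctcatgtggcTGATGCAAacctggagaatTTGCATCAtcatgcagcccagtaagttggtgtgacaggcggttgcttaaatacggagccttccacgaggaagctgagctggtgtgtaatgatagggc

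Nupr1, a stress-induced chromatin protein, measured 1.26, 1.33 and 1.33 CPM in the control and 60.9, 12.5 and 36.2 CPM in the RasHIGH cultures (log2 fold change 4.80 ± 0.59, adjusted p = 0.0021). Trib3, a pseudokinase that restrains Atf4, measured 3.5, 4.36 and 7.04 CPM in the control and 175, 41.1 and 99.9 CPM in the RasHIGH cultures (log2 fold change 4.41 ± 0.58, adjusted p = 0.0027). Chac1, which breaks down glutathione, measured 4.37, 6.10 and 4.67 CPM in the control and 57.9, 21.3 and 51.7 CPM in the RasHIGH cultures (log2 fold change 3.11 ± 0.39, adjusted p = 0.0024). In each of the 3 genes RasHIGH culture 1 was the highest and RasHIGH culture 2 the lowest of the RasHIGH cultures, and all 3 lay above the controls. Slc7a11, the cystine importer, rose from 10.5, 12.5 and 14.8 to 206, 72.2 and 55.8 CPM (3.15 ± 0.51).

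Enzymes and transporters of this list rose too. Asns, asparagine synthetase, measured 68.0, 93.3 and 98.0 CPM in the control and 309, 236 and 298 CPM in the RasHIGH cultures (log2 fold change 1.70 ± 0.19, adjusted p = 0.0014), and the cultures of the groups did not overlap. Psph, the last enzyme of serine synthesis, rose by 2.17 ± 0.19 and Phgdh, the first, by 0.92 ± 0.17. Mthfd2, which moves single carbons in mitochondria, rose by 1.38 ± 0.19, and Cth, which makes cysteine, by 2.29 ± 0.42. Transporters of neutral amino acids rose as well, namely Slc6a9 (2.95 ± 0.38), Slc1a5 (2.01 ± 0.18), Slc1a4 (1.90 ± 0.25) and Slc38a2 (0.89 ± 0.13). Atf4 itself rose from 236, 261 and 232 to 545, 371 and 481 CPM (0.94 ± 0.16). Ddit3 (Chop), the death-promoting factor of the same response, read 12.6, 11.6 and 11.2 CPM in the control and 66.3, 10.8 and 21.5 CPM in the RasHIGH cultures and did not pass the test (adjusted p = 0.12). RasHIGH culture 1 was the highest of the 6 libraries in 16 of the 28 genes. With 1 library fewer 15, 16, 16, 23, 20 and 19 members were higher, 15 in each of the 6 fits, and 0 lower, and 3 were higher with the lane term.

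**Figure D3:**
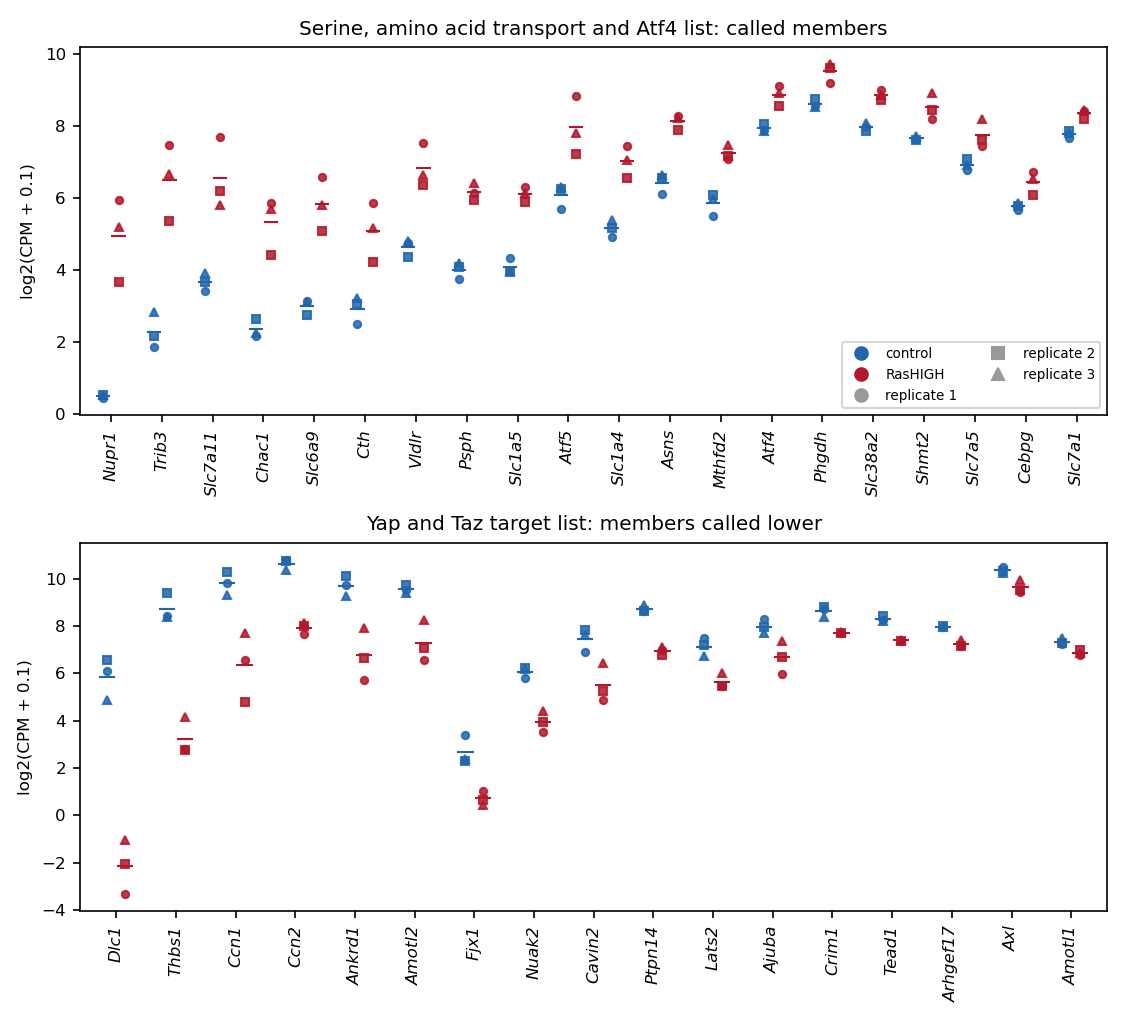
Levels in each culture, as log2(CPM + 0.1), of the called members of the Atf4 and amino acid list (top) and of the members of the Yap and Taz list that fell (bottom). Points are single cultures, control in blue and RasHIGH in red, and short bars are group means on that scale. The RasHIGH cultures lie above the controls in the top genes, as for Asns at 309, 236 and 298 CPM against 68.0, 93.3 and 98.0 CPM, and below them in the bottom genes, as for Ccn2 at 203, 255 and 277 CPM against 1796, 1717 and 1324 CPM.

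Cholesterol synthesis rose in part. Of 24 tested genes of the cholesterol branch 11 rose (45.8%) and 0 fell, and of 17 of the fatty acid branch 3 rose (17.6%). Fdps, which makes the farnesyl group that anchors Ras to membranes, measured 62.9, 87.2 and 77.9 CPM in the control and 316, 261 and 141 CPM in the RasHIGH cultures (log2 fold change 1.66 ± 0.30, adjusted p = 0.0087). The 3 RasHIGH cultures of Fdps lay above the controls, and RasHIGH culture 3 was the lowest of them. Hmgcs1 rose by 1.10 ± 0.27 and was called in 2 of the 6 leave-one-out fits, highest adjusted p = 0.093. Pparg, the nuclear receptor of fat storage, rose from 22.8, 16.6 and 16.5 to 93.2, 59.7 and 46.8 CPM (1.84 ± 0.28). The sterol regulatory element, searched as TCACCCCAC on both strands, was in 1 of the 9 risen members with a window (11.1%), in 0 of 21 tested members that did not rise and in 0.722% of the tested genes. The counts of both branches together with a library left out were 5, 4, 6, 13, 6 and 22 higher and 0, 0, 0, 1, 0 and 0 lower, and 1 and 0 with the lane term. RasHIGH culture 1 was the highest of the 6 libraries in 24 of the 41 genes. The median of the 41 genes was 1.97, 1.75 and 1.14 times the control mean in RasHIGH cultures 1, 2 and 3, so culture 3 lay near the controls, and 22 members were higher without it.

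Glycolysis and hypoxia genes rose in 16 of 43 tested cases (37.2%) and fell in 6 (14%). Hif1a, the oxygen-regulated transcription factor, measured 211, 202 and 223 CPM in the control and 883, 603 and 439 CPM in the RasHIGH cultures (log2 fold change 1.60 ± 0.25, adjusted p = 0.0051). Its targets Pdk1, which keeps pyruvate out of mitochondria, at 16.3, 9.76 and 11.1 CPM in the control and 118, 92.9 and 39.9 CPM in the RasHIGH cultures (log2 fold change 2.76 ± 0.42, adjusted p = 0.0046), and Bnip3, which marks mitochondria for removal, at 5.02, 6.28 and 5.75 CPM in the control and 68.0, 37.4 and 21.0 CPM in the RasHIGH cultures (log2 fold change 2.89 ± 0.42, adjusted p = 0.0040), rose as well. In these 3 genes RasHIGH culture 1 was the highest and RasHIGH culture 3 the lowest of the RasHIGH cultures, all of them above the controls. Slc16a1, the lactate exporter, rose with 1.26 ± 0.18 and Pfkp, a phosphofructokinase, with 2.34 ± 0.30. Ldha rose by 0.84 ± 0.24 and was called in 1 of the 6 leave-one-out fits, highest adjusted p = 0.14, and Slc2a1, the glucose transporter, by 1.05 ± 0.27 and was called in 2 of the 6 leave-one-out fits, highest adjusted p = 0.11. Ldhb, the lactate dehydrogenase subunit of oxidative tissue, was at 1.79, 0.628 and 0.644 CPM in the controls and at 0 counts in each RasHIGH library, at least 7.08-fold lower. Car12 (-4.84 ± 0.70) fell too. The counts with a library left out were 8, 7, 9, 18, 11 and 18 higher and 4, 3, 5, 6, 4 and 4 lower, and 0 and 1 with the lane term, and RasHIGH culture 1 was the highest library in 22 of the 43 genes. The median of the 43 genes was 1.56, 1.47 and 1.07 times the control mean in RasHIGH cultures 1, 2 and 3.

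Antioxidant genes, targets of Nrf2 among them, fell more often than they rose, 9 of 40 (22.5%) against 3 (7.5%). Gsta3, a glutathione transferase, measured 4.79, 5.92 and 14.1 CPM in the control and 0.0784, 0 and 0 CPM in the RasHIGH cultures (log2 fold change -7.92 ± 0.87, adjusted p = 0.0014), and Gstm2 fell from 9.01, 12.2 and 17.5 to 2.35, 1.74 and 0.962 CPM (-2.92 ± 0.40). The transferases have near copies in the genome, so the split of reads between them is uncertain. Osgin1, a growth inhibitor induced by oxidative stress, fell (-1.53 ± 0.28). Txnrd1, a common Nrf2 target, fell by 0.59 ± 0.15 and was called in 3 of the 6 leave-one-out fits, highest adjusted p = 0.12. With a library left out the list gave 0, 0, 0, 4, 0 and 3 higher and 7, 7, 7, 13, 7 and 9 lower members, and 0 and 2 with the lane term.

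Targets and regulators of p53 mostly fell or did not pass. Of 40 tested, 20 fell (50%) and 3 rose (7.5%), with a median of -0.86. The list was set up with earlier results on these genes known. In the apoptosis branch 8 of 11 fell and 0 rose, and the same 8 did so in each fit with a library left out. Fas, the death receptor, measured 14.4, 11.1 and 12.3 CPM in the control and 0.235, 0.0459 and 0.337 CPM in the RasHIGH cultures (log2 fold change -5.90 ± 0.47, adjusted p = 0.00053). Perp, a membrane protein of p53-dependent death, measured 636, 612 and 629 CPM in the control and 105, 165 and 148 CPM in the RasHIGH cultures (log2 fold change -2.17 ± 0.19, adjusted p = 0.00058). Apaf1, the core of the apoptosome, fell by 1.23 ± 0.15. Eda2r fell by 2.02 ± 0.16. Ccng1 went from 1482, 1309 and 1354 to 405, 436 and 634 CPM (log2 fold change -1.49 ± 0.19, adjusted p = 0.0026). Cdkn1a (p21), the cell cycle inhibitor that p53 induces, fell by 0.98 ± 0.24 and was called in 1 of the 6 leave-one-out fits, highest adjusted p = 0.091. Trp53 itself had 330.2, 319 and 331 CPM in the control and 183, 287 and 305 CPM in the RasHIGH cultures (adjusted p = 0.27), without passing the test. Ddit4l, an inhibitor of mTOR signalling, fell from 45.6, 39.3 and 43.4 to 0.314, 0.642 and 0.722 CPM (log2 fold change -6.27 ± 0.30, adjusted p = 0.00010). Counts with a library left out were 3, 3, 3, 3, 4 and 3 higher and 17, 16, 17, 24, 16 and 17 lower, and 2 and 11 with the lane term.

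Mdm2, the ligase that degrades p53 and itself a p53 target, went against that list, with 1346, 1098 and 1089.6 CPM in the control and 5552, 4092 and 5294 CPM in the RasHIGH cultures (log2 fold change 2.08 ± 0.18, adjusted p = 0.00057). Of the 21 genes annotated within 1000 kb of its start (GENCODE on NCBIM37), 11 were tested, 6 rose and 1 fell. The raised genes are the tested genes from Cpsf6, 333.8 kb before Mdm2, to Rap1b, 135.2 kb after it. Cpm and Slc35e3, which flank Mdm2, rose by 2.40 ± 0.40 and 3.55 ± 0.20, and Cpsf6 by 1.97 ± 0.16. Outside the run Yeats4, 486.3 kb before Mdm2, had a log2 fold change of -0.48 ± 0.20 and did not pass. The 6 rose in each fit with a library left out, and 5 of them with the lane term. No measure of DNA copies was analysed here.

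**Figure D4:**
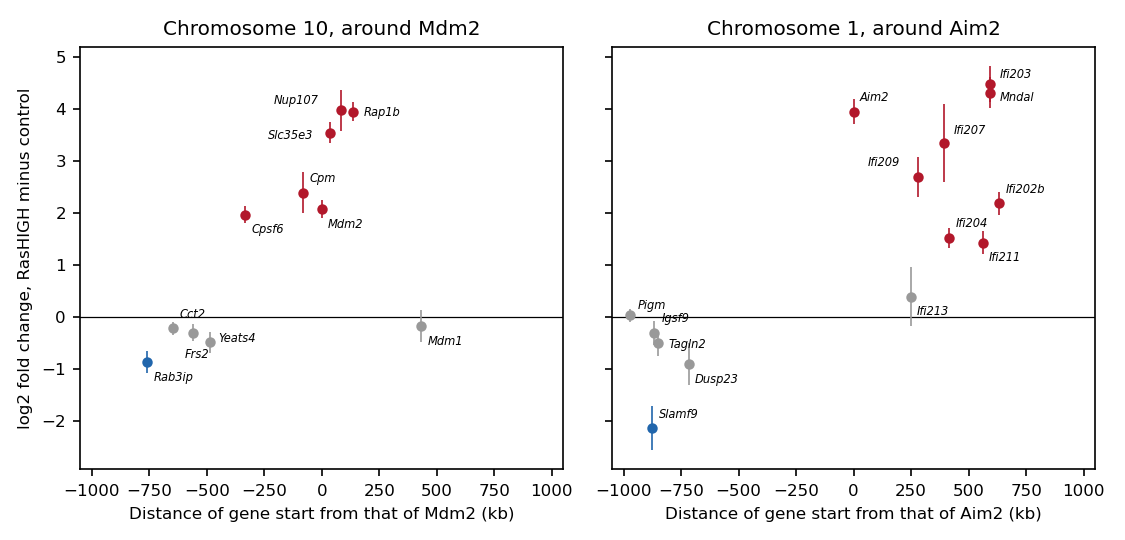
Log2 fold change, RasHIGH minus control, of the genes tested within 1000 kb of Mdm2 (left) and of Aim2 (right) against the distance of their starts in kb. Points are genes, bars are standard errors, red and blue mark genes that rose or fell and grey those that did not pass. On the left the raised genes lie between 333.8 kb before and 135.2 kb after Mdm2, and on the right between Aim2 and the end of the p200 genes.

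Cyclins and kinases of the G1 phase, 17 tested with Cdk inhibitors, had 0 rises and 2 falls, with Cdkn2a counted among the p53 regulators instead. The falls were 11.8% of the list, near the 11.7% of all genes tested. Cdk4 (-0.31 ± 0.14) and Cdk6 (0.29 ± 0.15) did not pass the test. Cdkn2a, the locus of p16 and p19Arf, rose from 55.5, 69.7 and 73.6 to 167, 132 and 104 CPM (1.02 ± 0.20), and counts per gene do not separate its transcripts. By quantitative PCR the paper reports p19Arf but no p16 in BMEL clones, with or without Ras, and it describes their p53 as wild type. Ccng2, an atypical cyclin of resting cells that is counted with the p53 targets, rose by 1.87 ± 0.20. Of 10 tested genes of the Bcl2 family, whose members hold or open the mitochondrial outer membrane, 2 rose (20%) and 0 fell. The death-promoting Bak1 rose by 0.62 ± 0.11 and Bok by 2.85 ± 0.59. Bok was called in 5 of the 6 leave-one-out fits, highest adjusted p = 0.053. The survival members Bcl2l1 (-0.26 ± 0.10) and Mcl1 (-0.21 ± 0.12) did not pass. The G1 list gave 0, 0, 0, 1, 0 and 0 higher and 0, 0, 0, 3, 0 and 0 lower with a library left out, the Bcl2 family 2, 2, 1, 2, 2 and 2 higher and 0, 0, 0, 0, 0 and 0 lower, and both 0 with the lane term.

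The p200 genes, a cluster on chromosome 1 whose proteins sense DNA in the nucleus or cytosol, rose in most cases. Of 9 tested, 8 rose and 0 fell, with a median of 2.70. Ifi203 measured 3.61, 3.59 and 5.51 CPM in the control and 138, 74.2 and 72.7 CPM in the RasHIGH cultures (log2 fold change 4.48 ± 0.34, adjusted p = 0.00046). Mndal measured 1.52, 1.89 and 2.09 CPM in the control and 50.5, 30.8 and 28.9 CPM in the RasHIGH cultures (log2 fold change 4.32 ± 0.30, adjusted p = 0.00030). Ifi202b measured 4.56, 3.55 and 4.63 CPM in the control and 21.8, 15.7 and 20.5 CPM in the RasHIGH cultures (log2 fold change 2.19 ± 0.21, adjusted p = 0.00097). Aim2, which assembles an inflammasome on DNA in the cytosol, rose with them (3.95 ± 0.24), and so did Ifi204 (1.53 ± 0.19) and Ifi211 (1.43 ± 0.22). In each of these 6 genes the lowest RasHIGH culture lay above the highest control. The p200 genes are near copies of each other and the starts of Ifi203 and Mndal nearly coincide, so how their reads were shared is uncertain. The family gave 7, 7, 7, 8, 8 and 8 higher members with a library left out and 4 with the lane term. The calls around Aim2 ended with this cluster: of 14 genes tested within 1000 kb 8 rose, all of them p200 genes, and Slamf9 fell.

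Other genes that interferon induces did not move as a block. Of the 15 tested antiviral effectors 4 rose (26.7%) and 2 fell (13.3%), and of 18 sensors, factors and GTPases 3 rose (16.7%) and 5 fell (27.8%). Cgas, the enzyme that turns cytosolic DNA into the messenger cGAMP, measured 7.23, 4.40 and 4.59 CPM in the control and 0.118, 0 and 0.0481 CPM in the RasHIGH cultures (log2 fold change -6.42 ± 0.63, adjusted p = 0.00098), while Tmem173 (Sting), the receptor of that messenger, rose by 1.48 ± 0.30 and was called in 4 of the 6 leave-one-out fits, highest adjusted p = 0.055. Irgm1, a GTPase of cell-autonomous immunity, measured 152, 181 and 208 CPM in the control and 40.3, 43.4 and 43.7 CPM in the RasHIGH cultures (log2 fold change -2.09 ± 0.15, adjusted p = 0.00036). Ifih1, a sensor of double-stranded RNA, fell by 1.98 ± 0.30. Oasl1, a repressor of Irf7 translation, rose by 2.54 ± 0.42. The whole list of 42 tested genes gave 10, 12, 13, 16, 11 and 16 higher and 7, 5, 5, 10, 7 and 8 lower with a library left out, beside 15 and 7 over the 6 libraries, and 4 and 3 with the lane term.

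In antigen presentation Tap1, which pumps peptides into the endoplasmic reticulum, stood against the class I heavy chains. Tap1 measured 25.8, 18.3 and 20.8 CPM in the control and 1.57, 1.01 and 1.54 CPM in the RasHIGH cultures (log2 fold change -3.97 ± 0.26, adjusted p = 0.00027). H2-K1 rose from 9.89, 11.9 and 11.7 to 24.0, 20.4 and 22.2 CPM (log2 fold change 0.99 ± 0.16, adjusted p = 0.0062) and H2-D1 by 1.20 ± 0.22, with the reservation that class I genes share reads. Of 19 tested genes 2 rose (10.5%) and 2 fell (10.5%), near the 10.9% and 11.7% of all genes tested. With a library left out 2, 2, 2, 2, 2 and 2 were higher and 1, 1, 2, 3, 1 and 1 lower, and 0 and 1 with the lane term.

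Surface proteins that natural killer cells, T cells or macrophages read changed in 10 of 17 tested cases, 4 higher (23.5%) and 6 lower (35.3%). Ceacam1, an inhibitory ligand, measured 0.380, 0.0370 and 0.282 CPM in the control and 12.9, 13.6 and 5.00 CPM in the RasHIGH cultures (log2 fold change 5.47 ± 0.69, adjusted p = 0.0024). Cd47, the signal that restrains macrophage uptake, rose by 0.97 ± 0.16 and Cd276 by 0.97 ± 0.15. On the other side Nectin1 fell from 40.8, 48.5 and 44.4 to 8, 4.40 and 4.62 CPM (-2.97 ± 0.27), H60b, a ligand of the activating receptor Nkg2d, with -4.57 ± 0.81, and Lgals9 with -1.47 ± 0.12. Cd274 (Pd-l1) at 4.18, 5.21 and 4.06 and 3.61, 2.84 and 2.60 CPM did not pass (adjusted p = 0.16). The 4 rises stood in each fit with a library left out, the falls numbered 7, 6, 5, 9, 6 and 7, and 1 and 4 were called with the lane term.

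Of cytokines and their receptors, 3 of 25 tested interleukin and colony-stimulating factor genes rose (12%) and 8 fell (32%). Il1rn, the antagonist of interleukin 1, read 24.1, 1.07 and 0.925 CPM in the control and 481, 381 and 352 CPM in the RasHIGH cultures (log2 fold change 5.54 ± 1.27, adjusted p = 0.021), with control 1 far above the other controls, and was called in 5 of the 6 leave-one-out fits, highest adjusted p = 0.052. Csf1, the macrophage growth factor, measured 169, 295 and 162 CPM in the control and 13.4, 25.4 and 48.8 CPM in the RasHIGH cultures (log2 fold change -2.84 ± 0.49, adjusted p = 0.0075). Il18 (-6.34 ± 0.85) and Il7 (-4.94 ± 0.67) fell from levels of a few CPM. Il4ra, a receptor chain, rose by 0.76 ± 0.11. Ccl2, the monocyte chemokine, was at 1.10, 3.18 and 1.49 CPM in the controls and 0 in each RasHIGH library, at least 13.3-fold lower, while Cx3cl1 rose (1.52 ± 0.31). The interleukin list gave 3, 3, 3, 4, 3 and 5 higher and 6, 6, 6, 10, 6 and 7 lower with a library left out, and 0 and 2 with the lane term. Cxcl12, which holds progenitors in their niche, was at 52.0, 85.1 and 44.0 CPM in the controls and 0 in each RasHIGH library, at least 419-fold lower. Of 12 tested chemokines 2 rose (16.7%) and 3 fell (25%) (1, 1, 2, 3, 2 and 1 and 3, 2, 2, 5, 3 and 3 with a library left out, 0 and 1 with the lane term).

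Single receptors and brakes of Nf-kB changed in both directions. Tnfrsf1b, the second Tnf receptor, rose from 1.29, 3.03 and 4.10 to 39.2, 38.0 and 18.5 CPM (log2 fold change 3.51 ± 0.48, adjusted p = 0.0032), and Tnfrsf11a (Rank) fell (-4.66 ± 0.54). Tnfaip3 (A20), which removes ubiquitin from the pathway's adaptors, measured 320.4, 377 and 237 CPM in the control and 32.0, 36.0 and 104 CPM in the RasHIGH cultures (log2 fold change -2.44 ± 0.48, adjusted p = 0.012), and Birc3 fell by 4.24 ± 0.58. Tnfaip2 rose by 1.80 ± 0.26. Nlrc4, which senses bacterial flagellin for an inflammasome, measured 0.380, 0.148 and 0.0805 CPM in the control and 9.45, 10.0 and 11.7 CPM in the RasHIGH cultures (log2 fold change 5.64 ± 0.47, adjusted p = 0.00057), and the flagellin receptor Tlr5 fell to 0 counts in each RasHIGH library from 0.723, 1.48 and 1.57 CPM. Of 16 tested Nf-kB regulators 2 rose (12.5%) and 5 fell (31.2%), beside 10.9% and 11.7% of all genes tested (1, 1, 1, 1, 2 and 1 and 4, 4, 4, 7, 4 and 4 with a library left out, 0 and 2 with the lane term). Of 14 Tnf superfamily genes 3 rose (21.4%) and 2 fell (14.3%) (2, 2, 2, 3, 2 and 3 and 4, 3, 2, 3, 3 and 4, and 1 and 2). Of 19 Toll-like receptor and inflammasome genes 4 rose (21.1%) and 4 fell (21.1%) (3, 3, 3, 4, 3 and 3 and 2, 2, 2, 6, 1 and 2, and 2 and 1). The shares of risen Nf-kB regulators and of lowered Tnf genes lay near those of all genes.

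Targets and regulators of Yap and Taz, the co-activators that Hippo kinases keep out of the nucleus by phosphorylation, were lowered in most cases. Of 25 tested, 17 fell (68%) and 1 rose (4%), the latter being Wwtr1, which encodes Taz itself, with a median of -0.93. Yap and Taz act through Tead factors, whose motif was searched as GGAATG on both strands. It occurred in 8 of the 10 lowered members that have a window (80%), in 3 of 6 tested members that did not fall (50%), in 14.3% of the tested genes and in 16.6% of all genes with a window. The members were listed as known targets or as regulators of Yap and Taz, so the shares are not those of targets alone. They say nothing of the fall, and a match describes the letters of a window and does not show binding. The windows of Ccn1 at chr3:145649936-145650235 (minus strand) and Ankrd1 at chr19:36119795-36120094 (minus strand) are given as the classic targets, with each match in capitals.
Ccn1: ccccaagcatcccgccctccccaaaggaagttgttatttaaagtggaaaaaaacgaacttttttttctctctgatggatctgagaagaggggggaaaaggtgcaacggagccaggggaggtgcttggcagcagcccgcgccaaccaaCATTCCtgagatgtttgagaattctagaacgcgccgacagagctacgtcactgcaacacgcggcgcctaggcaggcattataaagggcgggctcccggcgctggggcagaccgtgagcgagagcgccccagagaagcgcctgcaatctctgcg
Ankrd1: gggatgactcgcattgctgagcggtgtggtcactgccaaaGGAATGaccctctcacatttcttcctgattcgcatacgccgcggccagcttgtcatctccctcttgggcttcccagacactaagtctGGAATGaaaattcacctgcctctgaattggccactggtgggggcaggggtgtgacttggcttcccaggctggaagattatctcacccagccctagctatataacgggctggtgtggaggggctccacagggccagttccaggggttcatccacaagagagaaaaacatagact

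Ccn2 (Ctgf), a matricellular growth factor, measured 1796, 1717 and 1324 CPM in the control and 203, 255 and 277 CPM in the RasHIGH cultures (log2 fold change -2.72 ± 0.19, adjusted p = 0.00030). Ankrd1 measured 864, 1107 and 617 CPM in the control and 52.9, 100.4 and 242 CPM in the RasHIGH cultures (log2 fold change -2.71 ± 0.55, adjusted p = 0.013) and was called in 5 of the 6 leave-one-out fits, highest adjusted p = 0.057. Ccn1 (Cyr61) measured 912, 1259 and 628 CPM in the control and 93.2, 27.8 and 212 CPM in the RasHIGH cultures (log2 fold change -3.07 ± 0.69, adjusted p = 0.019) and was called in 4 of the 6 leave-one-out fits, highest adjusted p = 0.059. The lowest control of each gene was above its highest RasHIGH culture, and RasHIGH culture 3 was the highest of the RasHIGH cultures in all 3. Ptpn14, itself a brake on Yap, measured 395, 397 and 476 CPM in the control and 126, 111 and 139 CPM in the RasHIGH cultures (log2 fold change -1.75 ± 0.15, adjusted p = 0.00057), and Lats2, the kinase that phosphorylates Yap, fell by 1.49 ± 0.24. Dlc1, a GTPase activator, fell from 68.2, 94.9 and 29.1 to 0, 0.138 and 0.385 CPM (log2 fold change -8.57 ± 0.81, adjusted p = 0.00086). Of the regulators, Tead1 fell by 0.91 ± 0.12, Yap1 overlapped between groups (-0.29 ± 0.14), and Wwtr1 (Taz) rose by 0.66 ± 0.14 and was called in 4 of the 6 leave-one-out fits, highest adjusted p = 0.077. With a library left out 13, 12, 13, 19, 11 and 16 members were lower and 1, 0, 0, 1, 1 and 1 higher, and 5 and 0 with the lane term.

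Actin genes and targets of Srf, the factor that responds to actin assembly, fell in 11 of 22 tested cases (50%) and rose in 0, with a median of -0.57. Csrp1, a protein of actin bundles, measured 157, 134 and 81.4 CPM in the control and 30.7, 37.1 and 28.3 CPM in the RasHIGH cultures (log2 fold change -1.96 ± 0.26, adjusted p = 0.0027), and Cald1, caldesmon, measured 1039, 1106 and 817 CPM in the control and 522, 413 and 541 CPM in the RasHIGH cultures (log2 fold change -1 ± 0.17, adjusted p = 0.0071). Fhl1 fell by 6.42 ± 1.19 with control 1 far above the other controls at 37.1, 5.92 and 3.5 CPM. Acta2, smooth muscle actin, was too low to test at 3.35, 1.07 and 0.0402 CPM in the controls. With 1 library fewer 10, 6, 11, 13, 7 and 9 were lower, and 2 with the lane term.

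Collagens, basement membrane genes and other matrix genes fell more often than they rose. Of 19 tested collagens 13 fell (68.4%) and 1 rose, with a median of -1.70. Col12a1, a fibril-associated collagen, measured 21.8, 11.4 and 14.2 CPM in the control and 0.0784, 0.0459 and 0 CPM in the RasHIGH cultures (log2 fold change -8.33 ± 0.56, adjusted p = 0.00028). Col5a1 measured 10.3, 7.95 and 9.09 CPM in the control and 0.0392, 0.138 and 0.0481 CPM in the RasHIGH cultures (log2 fold change -6.86 ± 0.42, adjusted p = 0.00021). Col4a1, of basement membranes and the most abundant of those named, measured 1174, 1156 and 805 CPM in the control and 522, 543 and 487 CPM in the RasHIGH cultures (log2 fold change -1.01 ± 0.17, adjusted p = 0.0070). The exception was Col6a3, at 0.152, 0.111 and 0.0402 CPM in the control and 6.19, 4.36 and 5.10 CPM in the RasHIGH cultures (log2 fold change 5.61 ± 0.44, adjusted p = 0.00050), while its partner chain Col6a1 fell from 1.48, 0.887 and 0.925 to 0.118, 0.0917 and 0.0481 CPM. In these genes the groups did not overlap. The collagens gave 11, 9, 10, 14, 12 and 11 lower and 1, 1, 1, 2, 1 and 2 higher with a library left out, and 7 and 1 with the lane term.

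**Figure D5:**
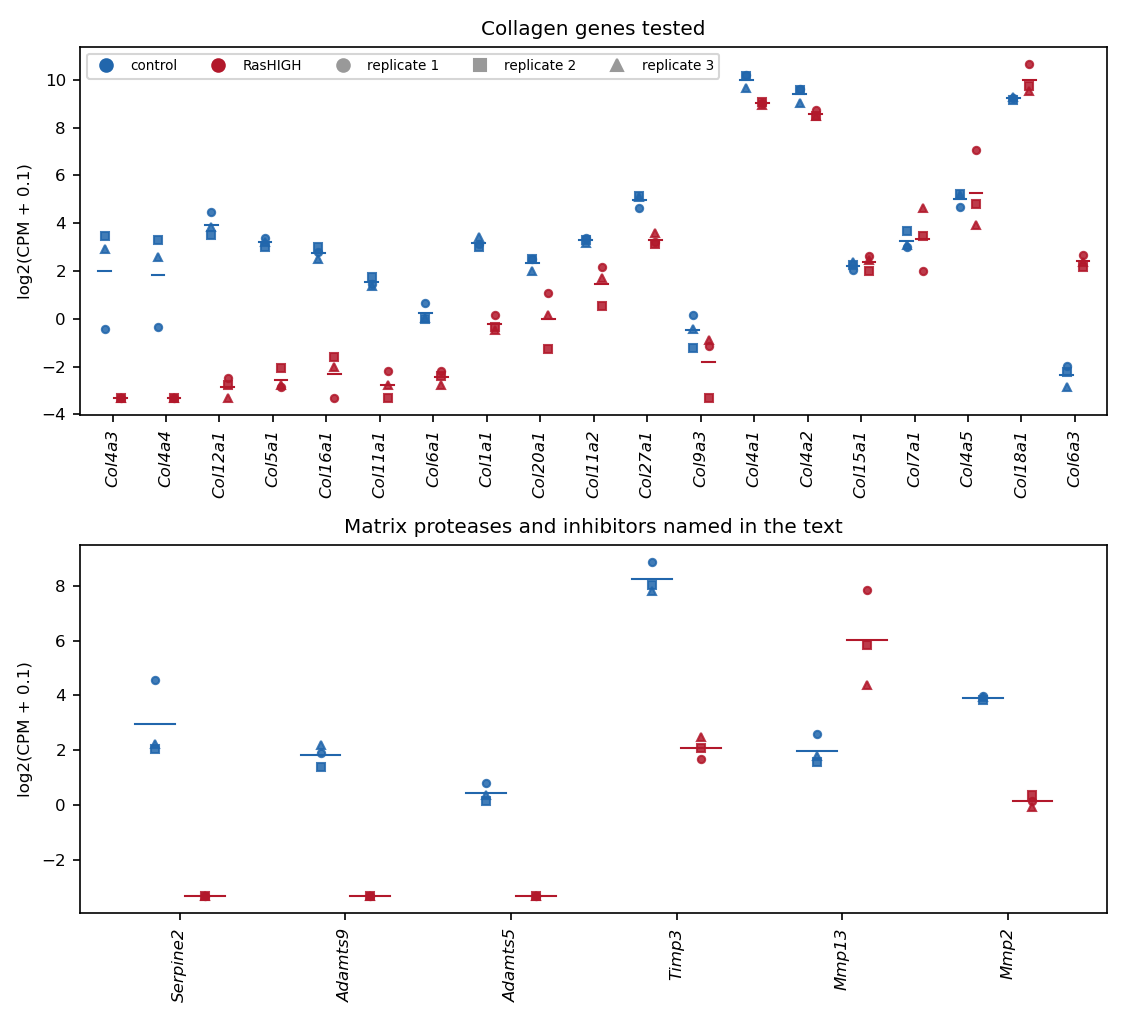
Levels in each culture, as log2(CPM + 0.1), of the tested collagens (top) and of matrix proteases and inhibitors named in the text (bottom). Points are single cultures, control in blue and RasHIGH in red, and short bars are group means on that scale. Most genes lie lower in the RasHIGH cultures, as Timp3 at 3.10, 4.17 and 5.48 CPM against 468, 263 and 224 CPM, and Col6a3 and Mmp13 lie higher.

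Fn1, fibronectin, measured 1141, 557 and 669 CPM in the control and 108, 21.2 and 28.8 CPM in the RasHIGH cultures (log2 fold change -3.90 ± 0.68, adjusted p = 0.0078). Among basement membrane genes, 10 of 19 tested fell (52.6%) and 0 rose. Nid2, which links laminin to collagen, fell from 28.9, 15.3 and 16.4 to 0.862, 1.38 and 0.914 CPM (-4.26 ± 0.36) and Lamb3, a chain of epithelial laminin, with -1.42 ± 0.32, the latter called in 4 of the 6 leave-one-out fits, highest adjusted p = 0.067. Of 20 other matrix genes 7 fell (35%) and 2 rose (10%). Efemp1 (-2.37 ± 0.26), Fbln2 (-1.96 ± 0.35) and the proteoglycan Vcan (-2.27 ± 0.25) went down, and Sdc3, a cell surface proteoglycan, went up (1.58 ± 0.23). With a library left out the basement membrane list gave 6, 4, 5, 12, 5 and 8 lower and 0, 0, 0, 2, 0 and 1 higher and the other matrix genes 5, 7, 6, 11, 8 and 7 lower and 2, 3, 2, 2, 2 and 2 higher, and with the lane term 1 and 0 and 2 and 1.

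Proteases and their inhibitors fell in 12 of 27 cases (44.4%) and rose in 4 (14.8%). Timp3, the inhibitor of metalloproteinases that is held in the matrix, measured 468, 263 and 224 CPM in the control and 3.10, 4.17 and 5.48 CPM in the RasHIGH cultures (log2 fold change -6.23 ± 0.40, adjusted p = 0.00024). Mmp2, gelatinase A, measured 15.8, 14.0 and 15.2 CPM in the control and 1.02, 1.19 and 0.866 CPM in the RasHIGH cultures (log2 fold change -3.86 ± 0.22, adjusted p = 0.00016). Mmp13, the collagenase, measured 5.90, 2.85 and 3.38 CPM in the control and 229.7, 56.5 and 20.9 CPM in the RasHIGH cultures (log2 fold change 4.66 ± 0.91, adjusted p = 0.012) with a wide spread among RasHIGH cultures, and was called in 5 of the 6 leave-one-out fits, highest adjusted p = 0.052. Adamts9 and Adamts5, which cut proteoglycans, fell to 0 counts in each RasHIGH library, at least 24.8-fold and 8.88-fold. With a library left out 9, 9, 9, 14, 8 and 12 were lower and 2, 0, 2, 4, 3 and 4 higher, and 6 and 0 with the lane term.

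Integrins, the receptors of this matrix, had 5 rises (29.4%) and 2 falls (11.8%) among 17 tested, the falls near the share of all genes. Itga6, a laminin receptor chain of progenitors, measured 375, 460.5 and 445 CPM in the control and 1366, 1365 and 1166 CPM in the RasHIGH cultures (log2 fold change 1.61 ± 0.14, adjusted p = 0.00064), with no overlap. Itgb6, part of an activator of Tgf-beta, fell from 30.9, 57.2 and 29.5 to 1.45, 1.28 and 5.00 CPM (-3.93 ± 0.59), and Itgb1, the common chain, with -0.78 ± 0.15, the latter called in 5 of the 6 leave-one-out fits, highest adjusted p = 0.056. The list gave 2, 3, 4, 5, 4 and 5 higher and 2, 1, 2, 3, 2 and 2 lower with a library left out, and 2 and 1 with the lane term.

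At cell junctions the cadherins changed in both directions. Cdh2, N-cadherin, measured 711, 692 and 499.9 CPM in the control and 128, 149 and 176 CPM in the RasHIGH cultures (log2 fold change -2.07 ± 0.19, adjusted p = 0.00081), and Cdh6 fell from 235, 123 and 119 to 16.4, 6.47 and 12.8 CPM (-3.74 ± 0.43). Cdh17, the liver-intestine cadherin, measured 196, 197 and 290.3 CPM in the control and 1568, 1589 and 1481 CPM in the RasHIGH cultures (log2 fold change 2.76 ± 0.19, adjusted p = 0.00030). Cdh1, E-cadherin, overlapped between groups at 0.22 ± 0.25 (adjusted p = 0.57). The tight junction genes Cldn2, at 209, 111 and 188 CPM in the control and 1033, 958 and 739 CPM in the RasHIGH cultures (log2 fold change 2.43 ± 0.26, adjusted p = 0.0014), and Ocln (1.79 ± 0.29) rose, while Tjp1 (Zo-1) fell (-0.92 ± 0.15). Of 27 tested junction genes 5 rose (18.5%) and 8 fell (29.6%), with 4, 3, 4, 5, 4 and 5 and 6, 6, 6, 12, 6 and 7 when a library was left out and 2 and 4 with the lane term.

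Keratins, intermediate filaments of epithelia, changed little in the abundant members. Krt19, of bile duct and progenitor cells, had 2121, 1658 and 1507 CPM in the control and 2836, 2430.3 and 2549 CPM in the RasHIGH cultures (log2 fold change 0.56 ± 0.16, adjusted p = 0.047) and was called in 2 of the 6 leave-one-out fits, highest adjusted p = 0.17, and Krt18 fell by 0.52 ± 0.13 and was called in 1 of the 6 leave-one-out fits, highest adjusted p = 0.13. Krt8 at -0.36 ± 0.17 did not pass. Of the 10 listed keratins tested, 2 rose (20%) and 2 fell (20%), and of all 17 tested keratin genes 6 rose (35.3%) and 2 fell (11.8%). The wider family gave 5, 1, 1, 5, 1 and 3 higher and 1, 0, 0, 1, 0 and 0 lower with a library left out, and 0 with the lane term. Nes, nestin, an intermediate filament of progenitors, fell from 561, 663 and 604 to 169, 128 and 98.8 CPM (log2 fold change -2.21 ± 0.21, adjusted p = 0.00090). Of 10 tested transcription factors that promote or oppose the epithelial to mesenchymal transition 3 rose and 0 fell, and of 6 mesenchymal genes 4 fell. Zeb2, which promotes the transition, rose by 1.04 ± 0.28 and was called in 2 of the 6 leave-one-out fits, highest adjusted p = 0.13. The others that rose, Grhl2 and Elf3, are factors of epithelial cells. Grhl2 rose from 0.266, 0 and 0 to 2.27, 1.79 and 0.529 CPM and was called in 3 of the 6 leave-one-out fits, highest adjusted p = 0.11. Elf3 was also called in 3 of the 6 leave-one-out fits, highest adjusted p = 0.12. Of the 3 risen factors 0 held in each of the 6 fits. In the fits with a library left out the list gave 1, 0, 1, 3, 2 and 2 higher and 2, 2, 4, 4, 2 and 3 lower, and 0 and 1 with the lane term.

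Most liver transcription factors did not pass the test. Hnf4a, the central factor of hepatocyte identity, had 469, 365 and 474 CPM in the control and 419, 369 and 369.7 CPM in the RasHIGH cultures (adjusted p = 0.43), with overlap. Sox9, of bile duct progenitors, rose by 1.17 ± 0.34 and was called in 2 of the 6 leave-one-out fits, highest adjusted p = 0.15, and Onecut2 rose by 1.38 ± 0.38 and was called in 2 of the 6 leave-one-out fits, highest adjusted p = 0.13. Prox1, needed for hepatoblast migration, fell from 9.17, 3.70 and 4.59 to 1.02, 0.229 and 0.577 CPM (log2 fold change -3.23 ± 0.59, adjusted p = 0.0092). Of 19 tested 5 rose (26.3%) and 2 fell (10.5%), with 0, 1, 2, 5, 2 and 4 and 1, 2, 2, 4, 1 and 1 when a library was left out and 0 with the lane term.

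Genes of the fetal liver and of progenitors changed in both directions, 2 of 9 higher and 5 lower. Hmga2, a chromatin protein of embryonic tissue, measured 808, 669.8 and 662 CPM in the control and 2121, 1971 and 1444 CPM in the RasHIGH cultures (log2 fold change 1.37 ± 0.18, adjusted p = 0.0028), and Hmga1 measured 17.4, 19.9 and 20.3 CPM in the control and 175, 104 and 72.4 CPM in the RasHIGH cultures (log2 fold change 2.61 ± 0.32, adjusted p = 0.0021). Afp, alpha-fetoprotein, fell from 19.7, 9.91 and 7.24 to 2.12, 2.98 and 2.98 CPM (log2 fold change -2.19 ± 0.41, adjusted p = 0.010) and Aldh1a1, which makes retinoic acid, with -2.73 ± 0.24. The list gave 2, 2, 2, 2, 2 and 2 higher and 3, 3, 4, 4, 3 and 3 lower with a library left out, and 0 and 2 with the lane term.

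Imprinted genes, which are read from 1 parental copy, fell in 7 of 13 tested cases (53.8%) and rose in 1. Peg3 measured 891, 904 and 855 CPM in the control and 222, 312 and 379 CPM in the RasHIGH cultures (log2 fold change -1.54 ± 0.20, adjusted p = 0.0026), and Ndn, necdin, measured 47.9, 20 and 19.4 CPM in the control and 0, 0 and 0.0962 CPM in the RasHIGH cultures (log2 fold change -9.71 ± 0.80, adjusted p = 0.00057). Grb10, an inhibitor of insulin receptor signals, fell by 4.45 ± 0.59 and Peg13 with -2.37 ± 0.20. Phlda2, a growth-restraining gene of the placenta, was the one that rose, at 6.62, 5.92 and 5.11 CPM in the control and 32.5, 74.1 and 44.1 CPM in the RasHIGH cultures (log2 fold change 3.09 ± 0.33, adjusted p = 0.0013). With 1 library fewer 6, 5, 5, 10, 5 and 6 were lower and 1, 1, 1, 1, 1 and 1 higher, and 4 and 1 with the lane term.

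Of 44 listed hepatocyte products 14 were high enough to be tested, 2 of which rose (14.3%) and 5 fell (35.7%). Rbp4, the retinol carrier, measured 140.3, 73.8 and 111 CPM in the control and 818, 552 and 436 CPM in the RasHIGH cultures (log2 fold change 2.47 ± 0.32, adjusted p = 0.0025). Apoa1, of high-density lipoprotein, measured 19.4, 14.8 and 56.9 CPM in the control and 2.55, 1.42 and 0.529 CPM in the RasHIGH cultures (log2 fold change -4.31 ± 0.72, adjusted p = 0.0067), and Cp, ceruloplasmin, fell from 23.9, 24.1 and 60.5 to 6.98, 4.08 and 5.10 CPM (-2.74 ± 0.43). Alb, albumin, was too low to test, at 10.5, 0.185 and 2.29 CPM in the controls and 0 in each RasHIGH library. The list gave 1, 1, 1, 2, 1 and 3 higher and 5, 6, 4, 5, 4 and 6 lower with a library left out, and 0 and 4 with the lane term. Of 17 tested complement genes 5 fell and 0 rose, 3 of the 5 being brakes on the cascade at the cell surface or in plasma, Cd59a (log2 fold change -5.89 ± 0.31, adjusted p = 0.00013), Cd55 (-1.37 ± 0.23) and C4bp (-3.41 ± 0.59). Cd59a measured 9.17, 7.25 and 8.05 CPM in the control and 0.118, 0.138 and 0.144 CPM in the RasHIGH cultures. The falls numbered 5, 5, 4, 5, 4 and 4 with a library left out and 4 with the lane term.

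Hox genes, which record position along the body axis, fell in 8 of 17 tested cases (47.1%) and rose in 2. Hoxb7 measured 10.6, 11.5 and 9.54 CPM in the control and 0.314, 0.367 and 0.241 CPM in the RasHIGH cultures (log2 fold change -5.08 ± 0.27, adjusted p = 0.00015). Hoxb6 fell from 13.5, 10.7 and 8.93 to 1.14, 0.826 and 0.866 CPM (-3.54 ± 0.28) and Hoxb5 with -3.91 ± 0.42. Hoxd8 fell to 0 counts in each RasHIGH library, at least 22.5-fold, and Hoxa3 rose by 1.80 ± 0.23. With a library left out 11, 7, 8, 11, 9 and 9 were lower and 1, 1, 1, 1, 1 and 1 higher, and 6 and 0 with the lane term.

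In the Notch pathway, in which ligands on one cell activate receptors on the next, the Dll ligands rose and the receptors Notch1 and Notch3 fell. Dll1 measured 0.532, 0.0370 and 0.282 CPM in the control and 16.2, 7.66 and 6.11 CPM in the RasHIGH cultures (log2 fold change 5.12 ± 0.73, adjusted p = 0.0037), and Dll4 rose from 0.152, 0 and 0.161 to 0.980, 2.61 and 1.54 CPM (3.99 ± 0.78). Notch3 measured 33.8, 15.6 and 20.4 CPM in the control and 1.57, 0.505 and 1.83 CPM in the RasHIGH cultures (log2 fold change -4.15 ± 0.51, adjusted p = 0.0021). Notch1 fell by 2.38 ± 0.50 and was called in 5 of the 6 leave-one-out fits, highest adjusted p = 0.063. The target Hey1 fell by 2.80 ± 0.48 and the glycosyltransferase Lfng with -1.49 ± 0.25. Jag1, a further ligand, overlapped between groups (-0.34 ± 0.23). Of 17 tested genes 4 rose (23.5%) and 5 fell (29.4%), with 2, 2, 2, 4, 3 and 5 and 5, 5, 5, 8, 3 and 5 when a library was left out and 0 and 2 with the lane term.

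Of 21 tested Wnt genes 9 fell (42.9%) and 2 rose. Among 16 receptors, antagonists and targets 2 rose and 5 fell, with a median log2 fold change of 0.12. Of 5 tested ligands 4 fell, among them Wnt9a at 31.5, 36.2 and 19.8 CPM in the control and 0.0784, 0.183 and 0.529 CPM in the RasHIGH cultures (log2 fold change -6.82 ± 0.55, adjusted p = 0.00054), Wnt4 (-3.16 ± 0.29) and Wnt7b (-1.35 ± 0.20). Axin2, a target that reports active beta-catenin, measured 5.48, 4.88 and 4.39 CPM in the control and 0.196, 0.321 and 0.481 CPM in the RasHIGH cultures (log2 fold change -3.88 ± 0.38, adjusted p = 0.00095). The receptors Fzd1 (-2.06 ± 0.26) and Fzd2 (-1.70 ± 0.14) and the antagonist Dkk2 (-3.57 ± 0.43) fell. Ctnnb1, beta-catenin itself, rose by 0.74 ± 0.17 and was called in 3 of the 6 leave-one-out fits, highest adjusted p = 0.082. The falls numbered 8, 9, 9, 10, 8 and 9 and the rises 3, 0, 0, 2, 0 and 1 with a library left out, and 6 and 0 with the lane term.

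Of 41 tested genes of the Tgf-beta, Bmp and activin families 12 fell (29.3%) and 4 rose (9.76%). The 3 Tgf-beta ligands differed. Tgfb1 rose from 31.6, 15.5 and 17.9 to 167, 76.2 and 63.0 CPM (log2 fold change 2.23 ± 0.44, adjusted p = 0.012). Tgfb2 measured 23.1, 18.6 and 18.1 CPM in the control and 2.23, 0.917 and 1.40 CPM in the RasHIGH cultures (log2 fold change -3.70 ± 0.34, adjusted p = 0.00076), and Tgfb3 fell by 3.14 ± 0.34. The receptor Tgfbr2 measured 164, 174 and 155 CPM in the control and 76.8, 57.5 and 61.7 CPM in the RasHIGH cultures (log2 fold change -1.33 ± 0.15, adjusted p = 0.0014). Inhbb, an activin subunit, was at 42.9, 55.1 and 23.9 CPM in the controls and at 0 counts in each RasHIGH library, at least 282-fold lower, and Inhba fell by 1.92 ± 0.31. Id2 (-1.03 ± 0.16) and Smad6 (-1.42 ± 0.20), both induced by Bmp, fell. With 1 library fewer 10, 10, 11, 15, 9 and 13 were lower and 4, 3, 3, 4, 4 and 3 higher, and 5 and 0 with the lane term.

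Factors that act on blood vessels rose in 6 of 14 tested cases (42.9%) and fell in 1. Vegfb rose from 21.1, 20.2 and 23.5 to 61.9, 54.6 and 42.5 CPM (log2 fold change 1.29 ± 0.17, adjusted p = 0.0030) and Angptl2 by 1.79 ± 0.34. Vegfa read 95.2, 98.5 and 78.9 CPM in the control and 337, 116 and 119.7 CPM in the RasHIGH cultures (adjusted p = 0.11), with RasHIGH culture 1 well above the others, and did not pass. The list gave 4, 4, 2, 5, 4 and 6 higher and 0, 0, 0, 1, 0 and 2 lower with a library left out, and 0 with the lane term.

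Solute carriers, a large family of transporters, rose in 36 of 202 tested cases (17.8%) and fell in 27 (13.4%). Slc12a1, the sodium-potassium-chloride carrier of the kidney, was at 0 counts in each control and at 1.29, 2.11 and 6.78 CPM in the RasHIGH cultures. The mean of the RasHIGH cultures, led by culture 3, was at least 27.3-fold higher. Its widespread relative Slc12a2 measured 214, 299 and 362 CPM in the control and 1061, 984 and 996 CPM in the RasHIGH cultures (log2 fold change 1.80 ± 0.20, adjusted p = 0.0015). Slc14a1, a urea transporter, rose from 0.494, 0.0370 and 0.0805 to 6.63, 8.62 and 7.99 CPM (5.21 ± 0.70). Slc8a1, the sodium-calcium exchanger, measured 10.3, 13.5 and 14.0 CPM in the control and 0.157, 0 and 0.144 CPM in the RasHIGH cultures (log2 fold change -6.87 ± 0.55, adjusted p = 0.00053). The family gave 24, 19, 23, 42, 23 and 31 higher and 15, 13, 15, 37, 15 and 19 lower with a library left out, and 5 and 7 with the lane term. Of 15 potassium channels 5 rose (33.3%) and 4 fell (26.7%). Kcnh2 (Erg) measured 4.15, 3.07 and 3.42 CPM in the control and 72.1, 29.5 and 26.1 CPM in the RasHIGH cultures (log2 fold change 3.59 ± 0.44, adjusted p = 0.0021), and Kcnq5 fell by 4.53 ± 0.48. The channels gave 6, 4, 4, 6, 4 and 4 higher and 4, 3, 4, 5, 3 and 4 lower, and 1 and 2 with the lane term.

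Serpins of clade b, which inhibit proteases inside cells, changed in large steps. Serpinb1a measured 1.90, 1.40 and 1.17 CPM in the control and 40.7, 66.6 and 38.9 CPM in the RasHIGH cultures (log2 fold change 5.02 ± 0.32, adjusted p = 0.00025). Serpinb8 measured 7.45, 7.84 and 4.43 CPM in the control and 0.157, 0.183 and 0.0962 CPM in the RasHIGH cultures (log2 fold change -5.44 ± 0.42, adjusted p = 0.00046). Serpinb9b fell from 112, 173 and 61.2 to 1.10, 5.46 and 3.99 CPM and Serpinb9, the granzyme B inhibitor, from 21.7, 27.0 and 23.6 to 1.33, 1.19 and 4.91 CPM, and these near copies may share reads. Of 16 tested serpin genes 4 rose (25%) and 9 fell (56.2%), with 3, 2, 2, 5, 2 and 4 and 9, 9, 9, 10, 9 and 9 when a library was left out, and 1 and 5 with the lane term. The tetraspanin Tspan7, a membrane organiser, rose by 1.52 ± 0.17, and of 15 tetraspanins 6 rose and 2 fell (5, 5, 5, 7, 5 and 6 and 1, 0, 1, 5, 1 and 2 with a library left out, 2 and 0 with the lane term). Of 11 S100 genes, small calcium-binding proteins, 4 rose, S100a8 (2.72 ± 0.51) among them, and 0 fell (4, 2, 2, 5, 2 and 3 higher with a library left out, 0 with the lane term).

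Genes of ribosomal proteins, the proteasome, ribosome assembly and Myc response, and zinc fingers had shares of calls near or under those of all genes. Of 78 tested cytosolic ribosomal protein genes 9 rose (11.5%) and 1 fell (1.28%), with a median of 0.21, and with a library left out 3, 3, 3, 23, 3 and 8 rose and 0, 0, 0, 1, 0 and 1 fell, and 0 with the lane term. Of 36 proteasome subunits 1 rose and 0 fell (1, 1, 1, 3, 1 and 1 and 0, 0, 0, 1, 0 and 0 with a library left out, 0 with the lane term). Of 28 genes of ribosome assembly and Myc response 2 rose and 1 fell, the last being Mycn, which was at 0 counts in each RasHIGH library (0, 0, 1, 3, 1 and 2 and 1, 1, 1, 1, 1 and 1 with a library left out, 0 with the lane term). Of 337 zinc finger genes named Zfp 28 rose and 30 fell (8.31% and 8.9%), with 13, 11, 12, 30, 16 and 20 and 15, 16, 15, 43, 16 and 19 when a library was left out and 1 and 7 with the lane term.

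The largest rises and falls of single genes were taken as the 15 in each direction with the largest fold change, at least 100 counts and no overlap. Scg2, a neuropeptide precursor, was at 0 counts in each control and at 8.59, 3.26 and 0.625 CPM in the RasHIGH cultures. The mean of the RasHIGH cultures, led by culture 1, was at least 33.4-fold higher. Scg2 was called in 4 of the 6 leave-one-out fits, highest adjusted p = 0.055. Prl2c2 (proliferin), a placental hormone, measured 7.91, 0.924 and 0.322 CPM in the control and 377, 202 and 276 CPM in the RasHIGH cultures (log2 fold change 6.54 ± 1.07, adjusted p = 0.0062), and reads of its near copies cannot be told apart with certainty. Tm4sf1, a membrane protein of endothelial and tumour cells, measured 1.03, 0.776 and 0.684 CPM in the control and 47.1, 91.6 and 57.3 CPM in the RasHIGH cultures (log2 fold change 6.29 ± 0.35, adjusted p = 0.00016). Padi4, which converts arginine to citrulline in histones, rose from 0, 0 and 0.0805 to 2.27, 3.21 and 1.40 CPM (6.22 ± 0.83), and Ccr1, a chemokine receptor, from 0, 0.0370 and 0 to 1.65, 1.74 and 1.01 CPM (6.37 ± 0.74). Mcpt1, a mast cell protease, was led by RasHIGH culture 3 at 7.45, 9.91 and 102 CPM and was called in 4 of the 6 leave-one-out fits, highest adjusted p = 0.063.

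Among the falls Vgll3, a co-factor of Tead proteins, was at 45.1, 62.8 and 21.4 CPM in the controls and at 0 counts in each RasHIGH library, at least 299-fold lower. Klhdc7a fell from 8.33, 12.6 and 15.4 CPM to 0 counts in each, at least 84.2-fold, and Lmcd1, a co-factor of Gata factors, from 12.2, 25.3 and 8.93 CPM to 0, at least 107-fold. Dapk1, a kinase that promotes cell death, measured 85.5, 37.5 and 41.4 CPM in the control and 0.0784, 0 and 0 CPM in the RasHIGH cultures (log2 fold change -10.64 ± 0.71, adjusted p = 0.00028). Serpine2, a protease inhibitor of the matrix, was at 23.3, 4.07 and 4.55 CPM in the controls, with control 1 far above the others, and at 0 in each RasHIGH library.

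Against RasLOW cells, which carry a lower level of the same oncogene, few genes passed the test. Of 11962 genes tested between RasHIGH and RasLOW cells 9 (0.0752%) passed, 7 (0.0585%) higher and 2 (0.0167%) lower in RasHIGH cells, while 1170 had an unadjusted p under 0.05 and DESeq2 called 419. Leaving out RasHIGH culture 1, 2 or 3, or RasLOW culture 2 or 3, ended all 9 calls. Without RasLOW culture 1 there were 16 calls. The cause of this was not tested. In a scale shared by the 9 cultures, Dlg3, a scaffold of cell junctions, was at 1.61, 0.624 and 0.720 CPM in the control, 6.99, 6.59 and 4.96 CPM in the RasLOW and 33.2, 30.2 and 35.4 CPM in the RasHIGH cultures, with a log2 fold change of 2.42 ± 0.22 from RasLOW to RasHIGH. Kif5c, a motor of vesicle transport, was at 9.10, 5.14 and 5.44 CPM in the control, 4.05, 3.79 and 7.11 CPM in the RasLOW and 54.9, 43.2 and 34.1 CPM in the RasHIGH cultures, with a log2 fold change of 3.14 ± 0.33. Apoc2, the activator of lipoprotein lipase, was under 0.3 CPM in the control and RasLOW cultures and at 3.43, 3.32 and 3.52 CPM in the RasHIGH cultures. Epb41l3, which ties the membrane to actin, fell from 6.25, 7.62 and 6.29 CPM in the RasLOW to 0.605, 0.592 and 0.429 CPM in the RasHIGH cultures, below the controls at 41.7, 13.1 and 16.2 CPM. The cultures of RasLOW and RasHIGH did not overlap in these 4 genes, and both comparisons share the 3 RasHIGH libraries.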

How the data were processed

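RNA of 3 control and 3 RasHIGH cultures was made into mRNA libraries with a NuGEN kit and sequenced. The authors aligned reads to the mm9 mouse genome with TopHat2 per their methods, while their processing notes name mm8 and mm10, and they deposited raw counts per gene. The counting program, its strand setting and the annotation are not given in the sources used here, so reads of overlapping and antisense genes cannot be told apart.

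Genes with enough counts (filterByExpr, minimum count 10) were scaled by TMM and tested between these 6 libraries with the quasi-likelihood F-test of edgeR 4.0.16 in R 4.3.3, adjusting p-values by Benjamini-Hochberg over the genes tested, at a threshold of 0.05. RasHIGH and RasLOW libraries were tested in the same way in a fit of their own. Standard errors were taken as the absolute log2 fold change divided by the square root of the F statistic. The scripts were tested on simulated data. DESeq2 1.42.0, RLE factors, other low-count filters, a fit of 9 libraries, a replicate block, a lane term and leaving out each library were the alternatives. Fold bounds against groups without a count divide the mean of the other group by the highest floor, with 3 counts as the floor in each library.

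The gene lists and their members were chosen with earlier results of these data known. Named were Hras, the 15 largest rises and the 15 largest falls among called genes with at least 100 counts and no overlap, the core genes of each list and its largest calls (up to 4 each way), the largest calls of each family (up to 3 each way) and the cell type markers. A further 62 genes of the lists, regions and the RasLOW comparison were named after their values were seen. Results for some items are not reported here.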

Additional observations from a re-analysis of the deposited data

How the results depend on the processing

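Against the 1341 genes higher and 1448 lower in RasHIGH cells, leaving out 1 library gave 622 to 1857 higher and 895 to 2039 lower genes, lowest without control 2 and highest without RasHIGH culture 1. With sequencing lane as a term 145 were higher and 400 lower, and 73.4% of the calls were lower in place of 51.9%. That fit compares the groups within 1 lane through control 3 alone, and the cause was not tested. DESeq2 gave 1768 and 1708, RLE factors 1363 and 1395, no low-count filter 1334 and 1449, a filter at 1 CPM 1260 and 1274, and 9 libraries in one fit 1194 and 1275. At the study's thresholds (log2 fold change beyond 1.5, p under 0.01, taken here as unadjusted) the count was 1190. It was 786 under the lane term and 1093 to 1233 with a library left out.

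Replicate numbers are not said to pair the samples. Deviations from the group means of same-numbered libraries correlated at 0.14, 0.13 and -0.15. Differently numbered libraries were not compared in this way, so these values do not decide whether the numbers pair. A block for that number left 1024 higher and 1179 lower genes. The 9 calls of RasHIGH against RasLOW became 101 with 9 libraries in one fit, 419 with DESeq2, 77 without a filter and, in edgeR, 0 with the replicate block (789 at an unadjusted p under 0.05). Leaving out 1 library gave 0 to 16, and the fits with 0 had 764 to 1776 genes at an unadjusted p under 0.05. The cause was not tested.

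Of the 243 named genes that passed the test, 214 passed in each of the 6 fits with a library left out, 242 with DESeq2, 236 with the block and 121 with the lane term, and 0 changed direction under the alternatives run. Among named genes that did not pass, the log2 fold changes of Dusp6 and Egr1 turned negative without RasHIGH culture 1, at -0.061 and -0.49. With 1 library left out they ranged from -0.061 to 0.26 (Dusp6) and from -0.49 to 1.89 (Egr1). At these depths a gene under 3 counts in a library was not detectable.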
